A study of Sus scrofa with 20 samples.

Results

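The miRNA content of pig peripheral blood mononuclear cells (PBMCs) before any brain hemorrhage was described from the 10 libraries titled Control, of 20 in the series. They were chosen by title alone, and no library from after the hemorrhage enters any value given here. PBMCs are the lymphocytes and monocytes that stay above a density gradient when red cells and granulocytes sink through it. Per the labels, the animals were untreated female pigs of the breed American Yorkshire, aged 80 to 90 days and weighing 36 to 41 kg, and the blood was drawn ahead of the injection that models intracerebral hemorrhage (ICH). All 10 libraries share breed, sex, age range and weight range. The labels number the libraries 1 to 10 as replicates without stating that each is a separate animal. SDs therefore describe the spread between these libraries, and p-values treat the libraries as independent, which the labels do not establish.

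miRNAs are short RNAs cut from hairpin precursors. One strand of the cut duplex, from the 5′ arm (5p) or the 3′ arm (3p) of the hairpin, is usually kept in an Argonaute protein, where it guides repression of matching messenger RNAs, and the other strand is usually degraded. miRNAs that descend from a common ancestor form families, and neighbouring hairpins are often cut from a shared primary transcript. In blood cells, miR-142 marks all white cells, miR-150 is high in mature lymphocytes, miR-223 in myeloid cells, and miR-451 and miR-144 in red cells. A library is made from a mixture of cells, so fewer cells of a type and less RNA per cell cannot be told apart.

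The pig-reference tables list 284 miRNA names, and the libraries held 949545 to 2091205 reads assigned to them (mean 1349110 ± 375680, SD, n = 10). Levels are read counts scaled to the library total, as CPM or as a percentage. The limit that a count of 0 allows, 3 reads, was 1.43 to 3.16 CPM depending on the library, and this limit and the intervals below cover counting error only. A library held 230 to 250 names with at least 1 read. Of the 284 names, 203 were detected in all 10 libraries, 274 in any of them and 10 in none. Only 118 names reached a mean of 100 CPM, and 16 reached 10000 CPM. Every library correlated with the others at a median r of 0.984 to 0.989 across miRNAs. As a check for a library deposited more than once, the 45 library pairs had a chi-square per degree of freedom of 44.96 or more, and all 10 were counted separately.

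Reads were concentrated in few miRNAs. The most abundant 3, let-7f, let-7g and miR-21, held 36.9% to 49.6% of a library's reads, with a median of 44.0%. The most abundant 10 held 72.8% ± 2.65 and the most abundant 20 held 85.7% ± 1.65 (SD, n = 10). Between 4 and 5 miRNAs were enough to reach 50% of a library's reads, and between 23 and 31 to reach 90%. The effective number of miRNAs, the exponential of the Shannon entropy of the shares, ran from 19.1 in replicate 9 to 27.3 in replicate 3. Replicate 9 was thus the most concentrated library and replicate 3 the most even.

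let-7f, a member of the let-7 family that restrains growth and stem cell genes, ranged from 11.6% of reads in replicate 3 to 20.5% in replicate 9, with a median of 16.8%. Its hairpins lie on chromosome X, 46303245 to 46303327, inside the interval of HUWE1, and on chromosome 3, 43466034 to 43466130 (Sscrofa11.1). let-7g, encoded on chromosome 13, 34406140 to 34406219, inside the interval of WDR82, ranged from 11.6% to 16.6%, with a median of 14.3%. miR-21, which targets inhibitors of growth and inflammatory signalling and is induced in activated immune cells, is encoded on chromosome 12, 36065267 to 36065358. It ranged from 7.37% in replicate 1 to 17.2% in replicate 5, with a median of 13.2%. The identity of the leading miRNA was not stable: let-7f led in 7 libraries and miR-21 in 3, replicates 3, 7 and 8. Counting error was small beside this spread, since the 95% exact binomial interval of the let-7f share in replicate 1 was 16.8% to 17.0%.

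The next ranks went to miR-26a, let-7a, miR-191, miR-103 and let-7i. miR-26a, a growth-restraining miRNA encoded inside the interval of CTDSP2 on chromosome 5, averaged 7.59% ± 0.974 and ranked 3rd or 4th in every library. let-7a averaged 5.65% ± 1.08. miR-191, encoded inside the interval of DALRD3 on chromosome 13, 31655484 to 31655563, averaged 4.80% ± 0.589. miR-103, whose 2 hairpins lie inside the intervals of PANK3 and PANK2, averaged 3.19% ± 0.721, and let-7i averaged 2.78% ± 0.626 (SD, n = 10 throughout). Ranks 9 to 15 were held by miR-92a, miR-30d, miR-99a, miR-142-5p, miR-181a, miR-20a and miR-140-3p, with means from 2.62% down to 1.41%. Ranks 16 to 20 were held by miR-150, miR-146a-5p, miR-24-3p, miR-128 and miR-148a-3p, with means from 1.17% down to 0.800%. miR-150 and miR-181a act in lymphocyte development, and miR-146a-5p damps NF-κB signalling.

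Few of these ranks were separated by more than the spread. Of the 20 differences between neighbours in the order down to rank 21, 3 had a mean log2 difference above the SD of that difference. These were miR-21 over miR-26a (mean 0.77, in 9 of 10 libraries), miR-26a over let-7a (0.44, in 10 of 10) and miR-191 over miR-103 (0.61, in 10 of 10). let-7f exceeded let-7g in 8 libraries, by a mean log2 difference of 0.20 with an SD of 0.22. let-7g and miR-21 each led the other in 5 libraries. Ranks moved further in the lower part of the list, where miR-20a held ranks 11 to 21, miR-150 14 to 22, miR-146a-5p 16 to 24 and miR-148a-3p 17 to 25. miR-24-3p, at ranks 18 to 20, was an exception.

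**Figure D1:**
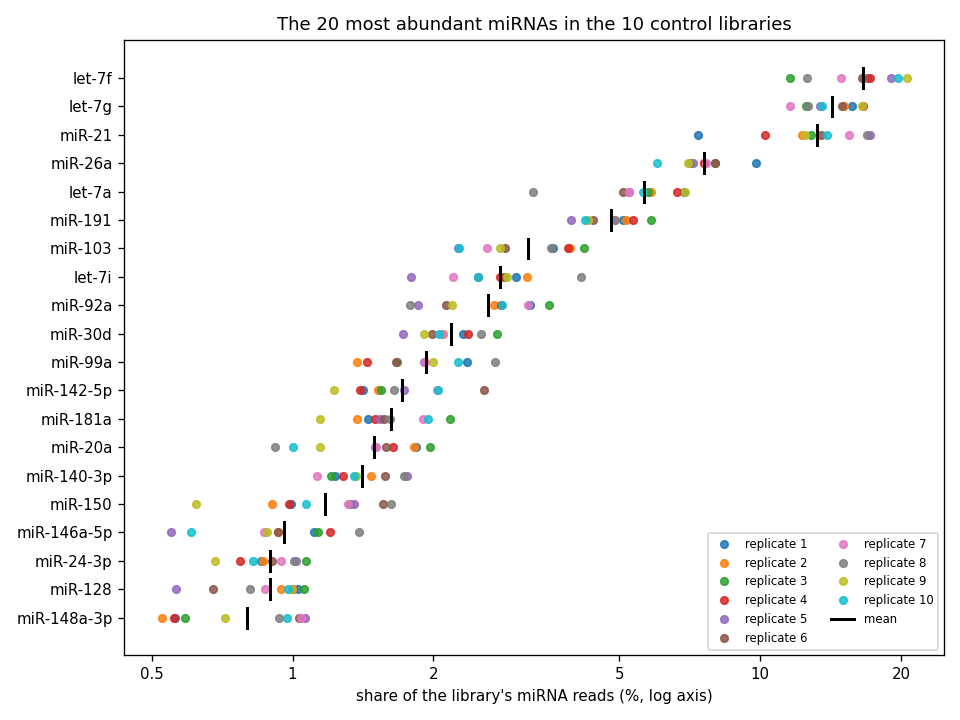
Share of a library's miRNA reads (%, log axis) for the 20 most abundant miRNAs; each coloured point is 1 of the 10 control libraries and the black bar is their mean. The shares of let-7f, let-7g and miR-21 overlap, and miR-21 has the low point of replicate 1 at 7.37%.

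Grouped by name into 164 families, the reads were more concentrated still. The let-7 family with miR-98 held 33.7% of reads in replicate 8, 48.3% in replicate 9 and a median of 41.3%. miR-21 alone came next with 13.2% ± 2.97, followed by miR-26 with 7.59% ± 0.974 (SD, n = 10). These 3 families together held 61.3% ± 3.64, and the largest 12 held 85.2% ± 1.75. The other 9 of these 12 each averaged between 1.45% and 4.80%. They were led by miR-191, miR-103, miR-92a, miR-30d, miR-142-5p, miR-20a, miR-181a, miR-99a and miR-140-3p.

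Most families rested on a leading member. Within let-7, let-7f supplied 40.7% ± 3.92 of the family's reads, let-7g 35.2% ± 2.15, let-7a 13.9% ± 1.97 and let-7i 6.98% ± 2.12. let-7e, the least abundant, supplied 0.0962%. The let-7i portion ranged from 4.42% to 12.3% of the family, and that of let-7f from 33.9% to 46.8%. In the family of miR-25, miR-32, miR-92 and miR-363, miR-92a supplied 81.2% ± 2.95 and miR-363 13.6% ± 3.37. Of the family of miR-17, miR-20, miR-93 and miR-106, whose members promote cell cycle entry, miR-20a supplied 71.4% ± 3.38 and miR-17-5p 14.6% ± 1.72. miR-30d led the miR-30 family with 70.0% ± 4.25, ahead of miR-30e-5p with 15.2% ± 1.98. miR-181a supplied 81.0% ± 2.62 of the miR-181 family. miR-103 and miR-99a each supplied over 99% of theirs, with means of 99.1% and 99.3%. let-7b, miR-25, miR-26b, miR-93 and miR-106b are among the members with no entry in the pig-reference tables used here, so these families are counted without them. In the human-reference table miR-26b-5p supplied 19.1% of the miR-26 family, and miR-106b-5p and miR-93-5p 8.57% and 7.03% of theirs.

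**Figure D2:**
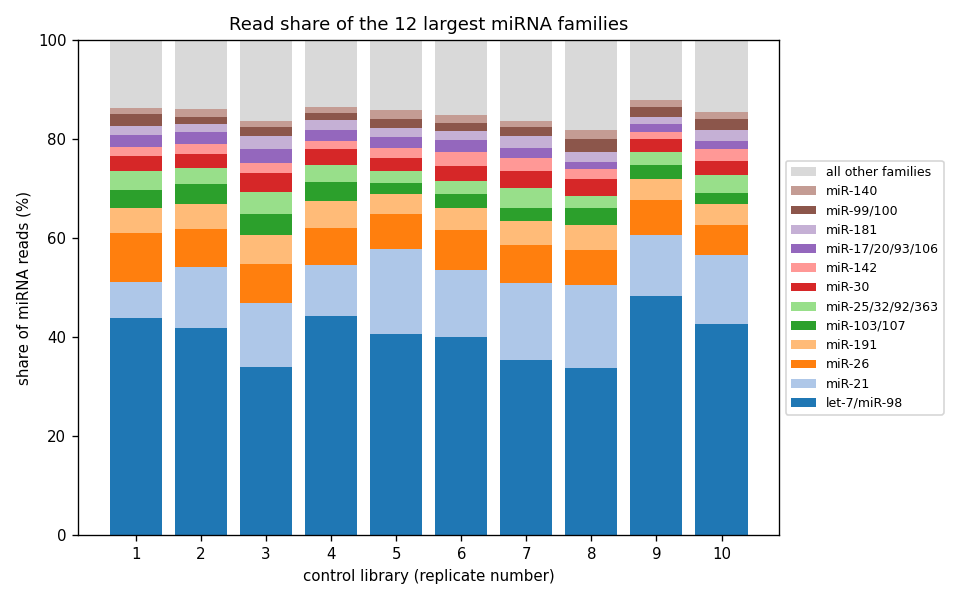
Stacked shares of miRNA reads (%) of the 12 largest families in each control library, with all other families in grey. The let-7/miR-98 block is lowest in replicate 8 (33.7%) and highest in replicate 9 (48.3%).

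The white cell lists had high sums, but single markers differed widely, with means of 16199 CPM for miR-181a and 83.7 CPM for miR-31. The means of miR-31 and of miR-146b (122 CPM) were below those of red cell miR-451 (284 CPM) and miR-144 (135 CPM). Markers of other tissues were mixed: liver miR-122 and muscle miR-1 and miR-133a were at or near the detection limit in the pig-reference table, while muscle miR-499-5p, brain miR-128 and, in the human-reference table, epithelial miR-203a-3p were well above it. miR-142, the marker of all white cells, summed over both arms to 14678 CPM in replicate 9, 29416 CPM in replicate 6 and a median of 20054 CPM. The lymphocyte list, in which all 7 markers had an entry, summed to 23853 to 45746 CPM (median 37592). Its largest members were miR-181a with 16199 ± 3039 CPM and miR-150 with 11749 ± 3134 CPM. miR-29a, miR-181b and miR-155-5p, which is induced on lymphocyte activation, had means of 3024, 3512 and 1157 CPM, and miR-342 and miR-31 had 806 and 83.7 CPM. The myeloid list had 5 of 6 markers in the pig table and summed to 16366 to 26974 CPM (median 21169). miR-24-3p led it with 8939 ± 1191 CPM, ahead of miR-27a with 4718 ± 1010, miR-22-3p with 4304 ± 951 and miR-23a with 3178 ± 835 CPM. miR-24-1-5p, miR-146b and miR-22-5p had means of 199, 122 and 43.7 CPM. miR-223, the defining myeloid miRNA, has an entry only in the human-reference table, where miR-223-3p ranged from 581 CPM in replicate 4 to 2020 CPM in replicate 5 (median 1225), and miR-223-5p had a mean of 222.5 CPM.

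The red cell markers miR-451, miR-144 and miR-486 were low but present. miR-451 ranged from 47.1 to 626 CPM with a median of 210 CPM, miR-144 from 23.6 to 220 CPM with a median of 131 CPM, and miR-486 from 31.97 to 211.6 CPM with a median of 115 CPM. All 3 had their lowest value in replicate 4. The red cell list summed to 3318 to 6937 CPM, of which miR-363 gave 4278 ± 1130 CPM. This miRNA is also part of a cluster with miR-106a. The platelet list summed to 45122 to 63295 CPM, of which miR-191, abundant in many cells, gave 48045 ± 5889 CPM, while miR-126-3p gave 327 ± 95.4 CPM. miR-340 and miR-151-3p of that list had means of 3534 and 1273 CPM, and miR-151-5p, the joined entry miR-199a-3p@ and miR-126-5p had 104.5, 15.1 and 12.6 CPM.

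In the vessel wall list, which shares miR-126 with the platelet list, miR-10a-5p led with 925 ± 246 CPM, miR-143-3p had 57.5 ± 21.9 CPM, miR-100 had 30.1 ± 8.69 CPM and neither arm of miR-145 reached a mean of 1 CPM. Liver miR-122 had a mean of 5.19 CPM and miR-192 a mean of 40.6 CPM. Among the muscle markers, miR-133a-3p had 0 reads in all 10 libraries, which allows up to 3.16 CPM in the shallowest, and miR-1 had a mean of 5.82 CPM. miR-499-5p had 407 ± 69.4 CPM, and miR-133b and miR-206 have no entry in the tables used here. In the brain list miR-128, also abundant in lymphoid cells, had 8929 ± 1640 CPM and the joined entry miR-9@ had 153 ± 42.8 CPM. miR-219a and miR-129a-3p had means of 8.17 and 2.44 CPM. miR-124, the neuronal marker, has no entry in the tables used here. Of the 6 epithelial markers only miR-205 has an entry in the pig-reference table, with 1 read in all libraries together. In the human-reference table miR-203a-3p, a skin and epithelial miRNA, had 2438 ± 392 CPM, against 28.3 CPM for miR-200c-3p and at most 0.998 CPM for the leading arms of miR-200a, miR-200b and miR-141. The part of other cell types in any of these levels was not tested.

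Arm use was read from the human-reference table, which names both arms of more hairpins than the pig-reference table. Of 148 hairpins with both arms named, 94 had a mean of at least 100 reads and were tested. In all 94 (100% called) the mean log2 ratio of 5p to 3p reads differed from 0, by an exact two-sided sign-flip test over the 10 libraries with Benjamini-Hochberg adjustment (adjusted p 0.00202 to 0.0293). The 5p arm was higher in 58 hairpins (61.7%) and the 3p arm in 36 (38.3%). In 91 hairpins all 10 libraries had the same dominant arm. For these the sign-flip p is the minimum that 10 libraries allow, 0.00195 before adjustment, whatever the size of the ratio. It therefore does not grade these hairpins. In the pig-reference table all 38 hairpins tested were called (100%), 22 towards 5p (57.9%) and 16 towards 3p (42.1%), and with copies of a hairpin joined in the human-reference table all 108 were (100%), 64 towards 5p (59.3%) and 44 towards 3p (40.7%). The minor arm held, in the 94, under 5% of a hairpin's reads in 68 and under 1% in 41. By name, 83.2% ± 1.56 of all reads in that table were 5p and 16.3% ± 1.504 were 3p.

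The tested hairpins held 64.9% ± 1.87 of reads (SD, n = 10). The abundant let-7f, miR-26a, miR-92a and miR-103a were not among them, since the name of their minor arm carries a copy number. Abundant hairpins that were tested were close to one-armed. The 5p arm supplied a mean of 99.999% of let-7g reads, 99.991% of miR-21, 99.998% of miR-191, 99.4% of let-7a, 98.9% of miR-181a and 99.8% of miR-26b. let-7i, miR-30d, miR-99a and miR-20a lay between 99.86% and 99.99%. miR-140, whose host gene is WWP2, was the exception in direction, with 1.93% to 4.91% of its reads from the 5p arm (median 2.64%). miR-142 was the exception in balance, since its 5p arm supplied 77.4% to 87.5% (median 82.0%) and the 3p arm the rest.

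Minor arms above 20% occurred in 8 hairpins. The 5p arm of miR-361 supplied 41.3% of the hairpin's reads in replicate 8, 71.5% in replicate 3 and a median of 60.4%, and was the larger arm in 8 of 10 libraries (exact sign-flip adjusted p = 0.0293). That call was lost without replicate 1, 2, 3, 4, 5, 7 or 9 in turn, with exact adjusted p from 0.0508 to 0.0586. miR-374a used its 5p arm for 47.4% to 70.8% of reads and crossed 50% in 1 library. In the pig-reference table its 5p share was 42.6% to 64.7%, with the 3p arm higher in 2 libraries (exact sign-flip adjusted p = 0.0371). Reads of miR-374a-3p summed to 1530 there and to 1209 in the human-reference table. miR-628 used its 5p arm for 33.9% to 51.3% of reads in the human-reference table and also crossed 50% in 1 library. miR-28 stayed on the 3p side in all 10 libraries although its 5p share was 37.1% to 47.5%. miR-671 ranged more widely, from 16.8% to 49.2%, and was still 3p-dominant in every library. miR-1306 and miR-15b favoured 5p, with 66.9% ± 5.05 and 79.5% ± 10.6, and miR-181c favoured 3p, with a 5p share of 28.9% ± 6.76 (SD, n = 10). The SD of the 5p share had a median of 6.93 percentage points in these 8 hairpins and 0.651 over all 94.

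miR-423 had a stable direction and an unstable balance. Its 5p share was 10.1% to 12.01% in replicates 1, 2, 3 and 4, 14.2% in replicate 9 and 21.6% to 28.4% in replicates 5, 6, 7, 8 and 10. let-7d split the libraries in the same way: its 5p share was 79.6% to 82.6% in replicates 1 to 4, 88.0% in replicate 9 and 90.1% to 94.8% in replicates 5, 6, 7, 8 and 10. In miR-505, picked after its values were seen and read from a mean of 12.3 5p reads, the 5p share was 0.699% to 1.31% in replicates 1, 2, 3, 4 and 9 and 5.06% to 6.71% in the other 5. This split of the libraries was seen in the data and was not tested. let-7b, miR-185 and miR-92b split as let-7d did, in that order of replicates. Their 5p shares were 97.7% to 98.4%, 98.5% and 99.2% to 99.4% for let-7b. For miR-185 they were 97.6% to 98.2%, 98.5% and 98.7% to 99.4%, and for miR-92b 0.390% to 0.965%, 1.07% and 1.51% to 2.75%. In pig-reference counts miR-671 had 16.6% to 27.9% in replicates 1, 2, 3, 4 and 9 and 34.7% to 49.2% in the others. The arm shares of miR-423, let-7d and these hairpins were picked after their values were seen. How many hairpins split was not counted. miR-142 and miR-28 did not split in this way. Their 5p shares were 77.4% to 83.1% and 38.4% to 44.3% in replicates 1 to 4. In replicates 5, 6, 7, 8 and 10 they were 78.7% to 87.5% and 37.1% to 47.5%.

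**Figure D3:**
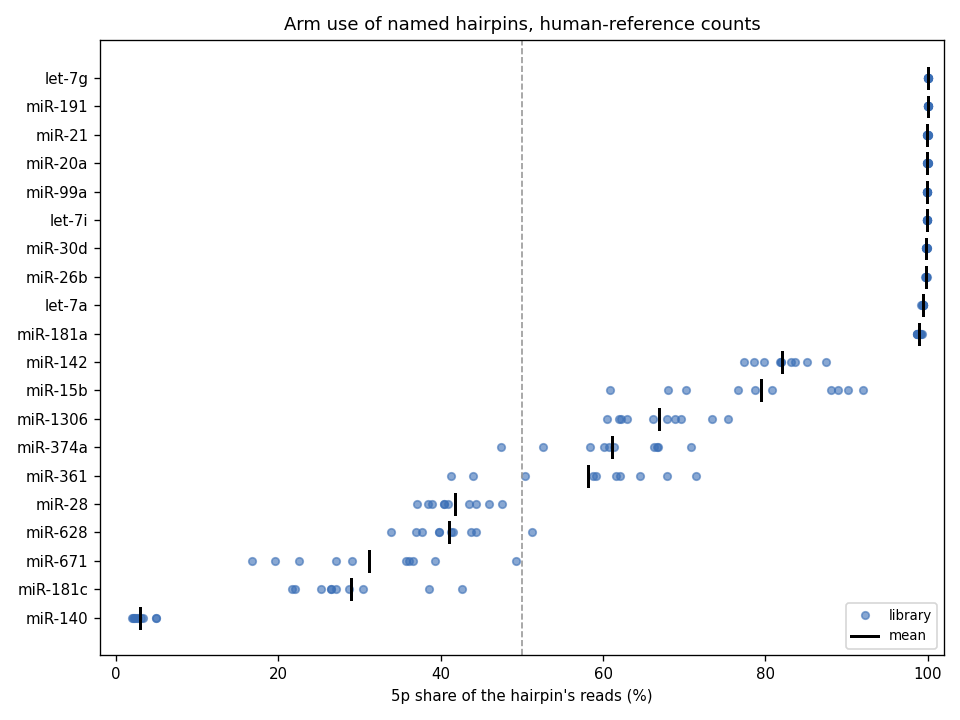
Share of a hairpin's reads that come from its 5p arm (%) in each control library (points) with the mean (bars), for the 12 most abundant tested hairpins and those with a minor arm above 20%; the dashed line is 50%. Most abundant hairpins sit near 100%, miR-140 near 3%, and miR-361, miR-374a and miR-628 cross 50%.

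The spread between libraries was measured as the SD of log2(CPM + 1) over the 118 miRNAs that averaged 100 CPM or more. It ran from 0.18 to 1.16 with a median of 0.35. On the linear scale the median CV was 24.3%, against 2.88% for counting alone. Across these miRNAs, which are not independent, the SD was lower at higher levels (r = -0.357, a description).

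The steadiest miRNAs included some of the most abundant. miR-191 ranged from 39356 to 58400 CPM (median 48811), which is 1.48-fold. let-7g and miR-26a also had an SD of 0.18, with 1.43-fold and 1.63-fold ranges. miR-340 was as steady at 2845 to 4030 CPM (median 3658). miR-374a-3p, miR-24-3p, miR-30d and miR-423-3p followed with SDs from 0.19 to 0.21. Scaling changes this group: 4 of the 8 steadiest under library totals were also among the 8 steadiest with TMM factors, and the same number with DESeq2 size factors.

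The widest spread was in miR-451 and miR-144, miRNAs of red cells. miR-451 was 47.1 CPM in replicate 4 and 626 CPM in replicate 5, a 13.3-fold range, with an SD of 1.16. Its levels split the libraries as the arm shares of let-7d did. They were 47.1 to 192 CPM in replicates 1 to 4, 198 CPM in replicate 9 and 223 to 626 CPM in the others. miR-148a-3p, picked after its values were seen, had 5249 to 5890, 7174 and 9338 to 10654 CPM in the same order. miR-144 and miR-486 overlapped between these groups of libraries. The split was not tested. miR-144 ranged over 9.34-fold (SD 0.93) and miR-486 over 6.62-fold (SD 0.71). Without replicate 4 the SD of miR-144 was 0.50, that of miR-486 0.43 and that of miR-451 0.92. miR-363, also on the red cell list, had a CV of 26.4%, close to the median of all. The other 5 of the 8 widest were miR-320 (SD 0.74), miR-423-5p (0.70), let-7d-3p (0.68), miR-152 (0.68) and miR-9841-3p (0.65). Without replicate 4, 4 of these 8 were still among the widest 8, and with TMM factors 7 were. Both arms of miR-423 come from a hairpin inside the interval of NSRP1, and its 5p arm ranged over 3.03-fold while its 3p arm ranged over 1.52-fold.

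A few libraries held most of the extremes. Replicate 3 had the highest level of 36 of the 118 miRNAs and replicate 8 of 29, while replicate 9 had the lowest level of 42 and replicate 5 of 22. The TMM factors, which rescale a library when most of its miRNAs shift together, were 0.805 in replicate 9 and 1.24 in replicate 3. The first principal component of the log2 levels held 35.1% of the variance, with replicate 4 lowest at -4.49, replicates 1, 2 and 9 between -2.50 and -2.22, and replicate 5 highest at 3.01. Levels of miR-423-5p (r = 0.949), miR-342 (0.941), miR-320 (0.936) and miR-451 (0.911) had the highest correlations with this component. The lowest was that of miR-671-3p (-0.842). The second component held 23.9% and set replicate 3 (3.66) against replicate 9 (-3.99). The labels give no batch or date for these libraries.

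**Figure D4:**
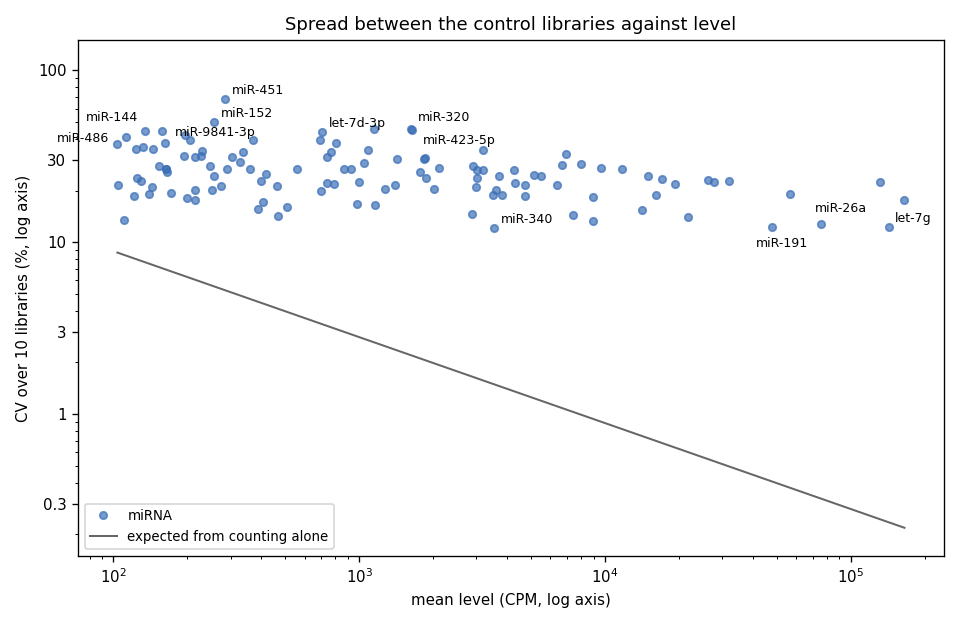
CV over the 10 control libraries (%, log axis) against mean level (CPM, log axis) for the 118 miRNAs with at least 100 mean CPM; the line is the CV expected from counting alone. All points lie above the line, with miR-451 highest and miR-340, let-7g and miR-191 among the lowest.

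Covariation at baseline was tested in 19 pairs of miRNAs. The relations covered were neighbouring hairpins, arms of a hairpin, red cell markers encoded apart, and markers of the same or different cell types. Pearson's r of log2(CPM + 1) was called in 4 of the 19 (21.1%), by a two-sided permutation test with 100000 resamples and Benjamini-Hochberg adjustment over the 19, and all 4 were positive. With Spearman's rho 2 pairs were called. With TMM factors or the centred log ratio, which relate each miRNA to the average of the others, the same 4 pairs were called and 1 more was added. Without replicate 9 none of the 19 was called, and without replicate 1 or 10 only 2 were. The permutation treats the libraries as exchangeable, although some levels split them as given above. Of the called pairs, miR-150 and miR-342 correlated with the first principal component at 0.753 and 0.941. The values were 0.685 and 0.867 for miR-29a and miR-29b, and 0.911 and 0.770 for miR-451 and miR-144. For miR-17-5p and miR-20a they were 0.152 and -0.343. The part of a shared shift in these calls was not tested.

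miR-150 and miR-342, lymphocyte miRNAs encoded on chromosomes 6 and 7, moved together most closely. miR-150 ranged from 6227 CPM in replicate 9 to 16204 CPM in replicate 8 (median 11912), and miR-342 from 389 to 1262 CPM (median 853) with its extremes in the same libraries. Their r was 0.886 (permutation adjusted p = 0.00893) and rho 0.891 (permutation adjusted p = 0.0220), and r was 0.807 without the 2 libraries farthest from the median of miR-150. Without replicate 9, r was 0.849 and the permutation adjusted p 0.0535.

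The other 3 called pairs have neighbouring hairpins on a chromosome. miR-29a and miR-29b start 403 bases apart on chromosome 18, but miR-29b has another copy on chromosome 9 and its count pools both. They had r = 0.874 (permutation adjusted p = 0.0119), rho = 0.782 (permutation adjusted p = 0.0657), and r = 0.778 without the 2 farthest libraries. miR-17-5p and miR-20a of the miR-17-92 cluster start 453 bases apart and had r = 0.811 (permutation adjusted p = 0.0322), rho = 0.612 (permutation adjusted p = 0.154), and r = 0.703 without the 2 farthest. miR-451 and miR-144 start 150 bases apart and had r = 0.760 (permutation adjusted p = 0.0454), rho = 0.612 (permutation adjusted p = 0.154), and r = 0.621 without the 2 farthest. The value of miR-451 with miR-144 depended on replicate 4, which was low in both: without it r was 0.489 and the permutation adjusted p 0.286. The call of this pair was also lost without replicate 1, 2, 8, 9 or 10 (r from 0.728 to 0.781) and with a pseudocount of 10 CPM (r = 0.744, permutation adjusted p = 0.0537). That of miR-17-5p with miR-20a was lost without replicate 1, 3, 9 or 10 (r from 0.744 to 0.811), and that of miR-29a with miR-29b without replicate 9 (r = 0.815).

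Not all neighbours moved together. miR-191 and miR-425-5p start 490 bases apart inside the interval of DALRD3, and their r was 0.0105 (permutation adjusted p = 0.977; rho = -0.0788, permutation adjusted p = 0.885; -0.169 without the 2 farthest). miR-425-5p ranged from 625 to 1245 CPM (median 850), a 1.99-fold range, with replicates 7 and 8 high, whereas miR-191 was highest in replicate 3. This value depends on scaling: with TMM factors r was -0.836 (permutation adjusted p = 0.0248) and with the centred log ratio -0.777 (permutation adjusted p = 0.0357), and this is the pair added above. In the human-reference table miR-93-5p and miR-25-3p had r = -0.0384 (permutation adjusted p = 0.967; rho = -0.236, permutation adjusted p = 0.607; -0.586 without the 2 farthest). miR-23a with miR-27a (r = 0.475), miR-181a with miR-181b (0.555), miR-182 with miR-183 (0.452) and miR-99b with miR-125a (0.325) did not pass the test. Of these 4, the first 2 changed sign with TMM factors, to -0.0852 and -0.136.

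Among pairs encoded apart, miR-223-3p and miR-150-5p, markers of different cell lineages, had r = 0.712 (permutation adjusted p = 0.0705), rho = 0.842 (permutation adjusted p = 0.0332) and r = 0.870 without the 2 farthest libraries, in the human-reference table. Without replicate 4 this pair was called (r = 0.827, permutation adjusted p = 0.0288), and with TMM factors r was 0.523 (permutation adjusted p = 0.226). The red cell miRNAs miR-144 and miR-486 had r = 0.660 but rho = 0.00606 (permutation adjusted p = 0.173 and 1), and r = -0.155 without replicate 4. miR-451 with miR-486 (0.419), with rho = -0.261, likewise fell to -0.300 without replicate 4. miR-451 with miR-150 (0.574), miR-21 with miR-150 (0.493), miR-155-5p with miR-146a-5p (0.275) and miR-126-3p with miR-191 (0.150) did not pass by Pearson's r. Both pairs of arms also missed the threshold, at 0.609 for miR-126 (permutation adjusted p = 0.173) and 0.585 for miR-142 (permutation adjusted p = 0.173). The miR-126 pair was called without replicate 2 (r = 0.786, permutation adjusted p = 0.0481).

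**Figure D5:**
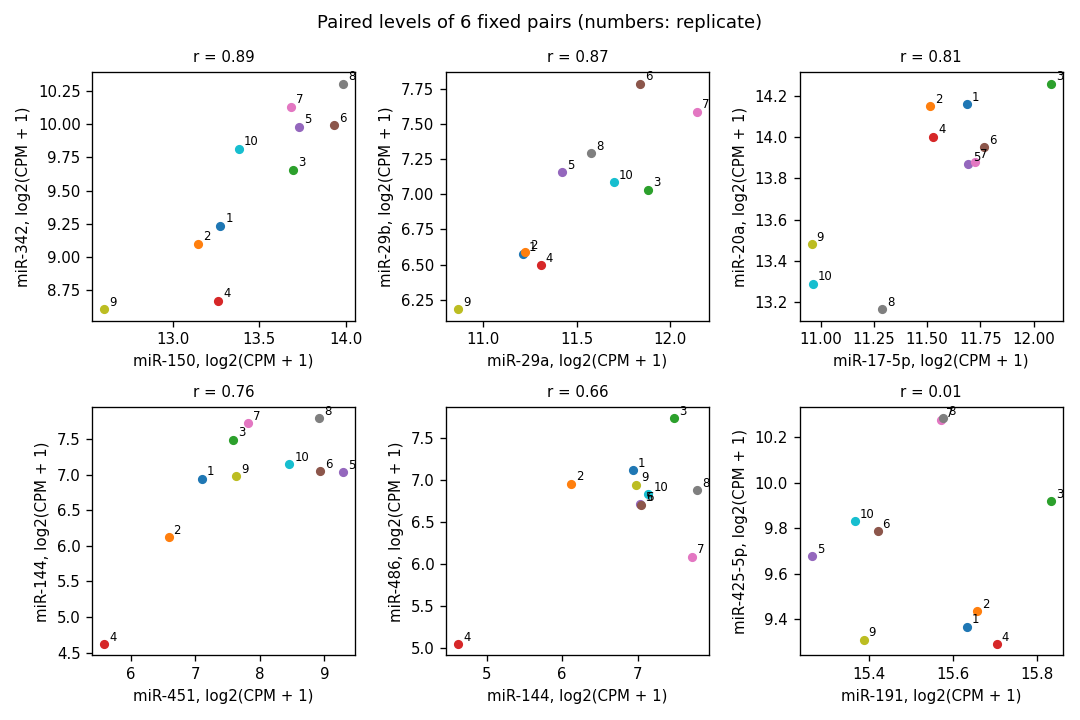
Levels of 6 of the tested pairs as log2(CPM + 1), each point a control library with its replicate number. miR-150 and miR-342 increase together (r = 0.886), miR-144 and miR-486 depend on replicate 4, and miR-191 and miR-425-5p show no trend at library totals (r = 0.0105), which becomes -0.836 with TMM factors.

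Over all 6903 pairs of the 118 miRNAs, r had a median of 0.184 and 65.3% of values were positive, as a description with no test, since pairs share miRNAs and all share the same 10 libraries. The median was 0.00235 with TMM factors and -0.0201 with the centred log ratio. Both scalings take out shifts that most miRNAs of a library share, which brings this median towards 0 by construction. The 51 pairs with hairpins that start within 10 kb of each other, at any copy of either, had a median of 0.532, and 49 of them were positive. Their median was 0.252 with TMM factors and 0.210 with the centred log ratio, so it lay above that of all pairs under each scaling. Pairs of arms of a hairpin had a median of 0.538 (14 pairs, of which 10 were positive, with the lowest at -0.553). Members of a family by name had a median of 0.351 (89 pairs, of which 73 were positive). The family pairs include these arm pairs and some of the neighbours. Both medians are given at library totals only.

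The pairs at the ends of this distribution were picked for their r, which is given at library totals and without a test. Values under other scalings, which changed r in some of the fixed pairs, are not given for them. The highest were miR-142-3p with miR-3613 (r = 0.975, rho = 0.903), miR-320 with miR-423-5p (0.975, rho 0.915), miR-142-3p with miR-19a (0.967, rho 0.964), miR-19a with the joined entry miR-339@ (0.966, rho 0.927), miR-15b with miR-30c-5p (0.958, rho 0.830) and miR-15b with miR-16 (0.956, rho 0.976). Of these 6, miR-15b and miR-16 are neighbours, 157 bases apart inside the interval of SMC4, although the miR-16 count also includes a copy on chromosome 11 beside miR-15a. The lowest were miR-451 with miR-671-3p (-0.957, rho -0.964), let-7e with miR-146a-5p (-0.956, rho -0.927), let-7f with miR-23a (-0.926, rho -0.915) and let-7d-3p with miR-148a-3p (-0.924, rho -0.806). Without the 2 farthest libraries these 10 values stayed at or beyond 0.892 in size and kept their signs.

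Names present in both tables mostly had close counts. Each library had 1.02 to 1.04 times as many reads there, and of 110 names with at least 100 mean CPM in either table, 98 had read counts within 1.1-fold of each other. Ranks were compared only over the 104 entries whose name, arm included, is identical in the tables, and among these the most differently ranked were miR-484 (1 read in the pig table, 17744 in the human), miR-296-3p (6106 and 28), miR-24-2-5p (58 and 2617), miR-24-1-5p (2615 and 58) and miR-296-5p (274 and 2), with reads summed over the 10 libraries. The counts of miR-24-1-5p and miR-24-2-5p are thus almost exchanged between the tables. The 5 most abundant human names without a same-number counterpart in the pig table were miR-25-3p, with 2774 ± 650 CPM, miR-203a-3p with 2438 ± 392, miR-93-5p with 1676 ± 407, miR-223-3p with 1302 ± 454 and miR-330-3p with 507 ± 96.3 CPM (SD, n = 10). Together, the 237 human names of this kind held a median of 1.07% of a library's reads. That figure leaves out family members whose number the pig table does hold under another letter. The most abundant of these named here was miR-26b-5p, with 17470 ± 3378 CPM and rank 12 in the human-reference table, and let-7b-5p and miR-106b-5p had 3292 ± 611 and 2003 ± 471 CPM; the last 2 were picked after their values were seen.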

How the data were processed

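Total RNA of PBMCs was made into small RNA libraries with a NEBNext kit, per the labels' protocols. The authors deposited whole-number read counts per miRNA against pig and human references, unfiltered (used here) and filtered, and RPM values. The deposited RPM were, on checking, filtered counts over their total (within 0.00499) and were not otherwise used. Per the submitters' processing notes, bcl2fastq, FastQC and Bowtie were used with hg38, GRCh38 and Sscrofa11.1. How reads were counted, those matching several miRNAs included, and what set the filter is not given in the sources used here. This filter kept 99.6% to 99.8% of reads. Adapter ligation depends on sequence, so shares are of reads, not molecules.

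Columns were mapped to samples by their description. Shares and CPM used library totals. Arms needed a mean of 100 reads and a pseudocount of 0.5 reads, and names joined with @ were left out there. Spread and covariation used log2(CPM + 1) of miRNAs with at least 100 mean CPM, the fixed pairs excepted. Families were joined by name, and neighbours were hairpins whose starts lie within 10 kb, with no strand, in the NCBI RefSeq gene table of Sscrofa11.1, where 266 of 284 pig names matched. "Inside the interval" means within another gene's bounds, not its exons. Sequences were not used here, so the planned grouping by seed was replaced by names. Python 3.11.15, numpy 2.4.6, scipy 1.17.1, pandas 2.3.3 and R 4.3.3 with edgeR 4.0.16 (TMM, BCV) and DESeq2 1.42.0 (size factors) were used, and the arm, spread and correlation code was tested on simulated data.

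Named were the top 20 by mean share, the 8 largest and 8 smallest SDs, the 12 largest families with leading members, 12 abundant hairpins and those with a minor arm over 20% or a changing dominant arm, all fixed pairs, markers with at least 10 mean CPM in the pig-reference table (in the human-reference table only those without a pig entry), the 6 highest and 4 lowest r, and 5 names each for differences between tables. Other markers, miR-505, let-7b, miR-106b, miR-652, miR-1271 and miR-20b were named after their values were seen. So were the arm shares of miR-423, let-7d, let-7b, miR-185 and miR-92b, and those of miR-671 in the pig-reference table. The members and lists were chosen with earlier results of these data known.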

Additional observations from a re-analysis of the deposited data

Results flagged for a closer look

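In 103 sets of 10 values (levels of named miRNAs, family shares, arm shares, depth, detection and evenness), a library was set apart when its gap to the nearest other exceeded Dixon's 95% value for 10 samples. This picked out 5 values, and chance alone flags about 1 in 20 groups. let-7a was low in replicate 8, at 14.999 on the log2(CPM + 1) scale against 15.63 to 16.08 in the others. miR-144 was low in replicate 4, at 4.62 against 6.12 to 7.79. The miR-26 family was high in replicate 1, at 9.81% of reads against 6.03% to 8.02%. The 5p share of let-7a was low in replicate 7, at 99.21% against 99.37% to 99.48%. The 5p share of miR-20a was low in replicate 4, at 99.97% against 99.98% or more. The value of replicate 4 for miR-144 touches the correlations of the red cell miRNAs given above with and without it.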

How the results depend on the processing

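No paired analysis was possible because only the Control libraries were used and no groups were compared. The alternatives by shared seed were not run, since no miRNA sequences were used. Without 1 Control library in turn, the share of the 10 most abundant was 72.3% to 73.2%, the effective number 22.5 to 23.4, the let-7/miR-98 share 39.7% to 41.3%, the hairpins called 91 to 94 (5p 57 to 59, 3p 33 to 36), the median SD 0.33 to 0.36, and the fixed pairs called 0 to 4. The human-reference counts moved the effective number from 22.9 to 25.4 and the detected names from 238.8 to 383.2, a longer list of names. Fewer hairpins were tested and called in the pig-reference table (38, with 22 5p and 16 3p) and at a mean of 1000 reads (54, with 33 and 21). With copies joined, an alternative chosen after seeing the data, 108 were called. A minimum of 10 CPM gave a median SD of 0.40. The median r of all pairs went from 0.184 to 0.00235 with TMM factors and reversed to -0.0201 with the centred log ratio, and that of neighbours from 0.532 to 0.252 and 0.210. Signs reversed for miR-191 with miR-425-5p (-0.836 with TMM, -0.777 centred, -0.00712 human-reference, and -0.124 to 0.164 without 1 library), miR-23a with miR-27a (-0.0852 and -0.0679), miR-181a with miR-181b (-0.136 with TMM), miR-126-3p with miR-191 (-0.258 and -0.313, and -0.154 to 0.507 without 1 library), miR-93-5p with miR-25-3p (-0.720 to 0.179 without 1 library), miR-144 with miR-486 (-0.155 to 0.837) and miR-451 with miR-486 (-0.300 to 0.525). The cause was not tested. Depth limits names below about 3 CPM.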

Other observations

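Outside the comparisons above, miR-7134-3p, a name with no same-number counterpart in the human-reference table, ranked 24th in the pig table with 4583 to 9656 CPM (median 6123), and its 5p arm had 399 to 862 CPM (median 537). The human-reference table gave miR-1271-5p 20001 reads over the 10 libraries where the pig entry miR-1271 had 58, and miR-652-3p 3377 where miR-652 had 64. In the other direction, the pig entry miR-20b had 10834 reads and human miR-20b-5p 1246. Which entry these reads belong to was not tested.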
